A study of Homo sapiens with 5 samples.

Results

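The genes described here encode the MHC class I molecule and the machinery that supplies it with peptides. Rows of the deposited tables with the symbols HLA-B, HLA-C, HLA-E, B2M, TAP1, TAP2, TAPBP, PSMB8 and PSMB9 were taken, and all 9 were found among 20026 genes. RNA-seq had been carried out on HCT116 cells, a human colorectal carcinoma line, to find genes that depend on the ETS transcription factor ELK4. A pair of samples carried the empty pLKO.1 lentiviral vector, and each of 3 others carried a different stable ELK4 hairpin in that vector (shELK4_1, shELK4_2 and shELK4_3). All 5 were puromycin-selected cultures of the same line, with no interferon treatment named. The labels do not say whether the pLKO.1 samples came from separate cultures, so the p-values measure only the spread between these samples. Each hairpin is represented by 1 sample. A bulk sample cannot tell fewer expressing cells from less RNA per cell.

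Class I molecules consist of a polymorphic heavy chain (HLA-B, HLA-C or, with little variation, HLA-E) bound to beta-2-microglobulin, the product of B2M, and they show peptides from the cell interior to CD8 T cells and NK cells. Proteasomes cut the peptides, the TAP1-TAP2 transporter carries them into the endoplasmic reticulum, and tapasin, the product of TAPBP, holds empty class I molecules at the transporter until a peptide binds well. PSMB8 and PSMB9 encode catalytic subunits of the immunoproteasome, which take the place of the standard subunits PSMB5 and PSMB6 in cells exposed to interferon. Most of these genes respond to interferon gamma through IRF sites, and HLA-B and B2M also carry NF-κB sites. The heavy chains and B2M carry an SXY module at which NLRC5, RFX proteins, CREB and NF-Y assemble.

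Of the 9 genes, 8 lie in the MHC on chromosome 6 and B2M lies on chromosome 15. In RefSeq on GRCh38.p14, HLA-E spans 30489509 to 30494194, HLA-C 31268749 to 31272092, HLA-B 31353875 to 31357179 and TAPBP 33299694 to 33314078. TAP2 (32821831 to 32838739), PSMB8 (32840717 to 32844679), TAP1 (32845209 to 32853704) and PSMB9 (32854192 to 32859851) form a block of 38021 bases. The starts of TAP1 and PSMB9, which are read in opposite directions, are separated by 487 bases. B2M spans 44711517 to 44718145.

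Promoter windows of 300 bases, most of each before the start site, were found in RefSeq for 8 of the 9 genes, all but HLA-E, and TAP1 and PSMB8 had a window at each of 2 starts. The windows of the 4 genes that were lower in every hairpin at an unadjusted p under 0.05 are shown, together with PSMB9, the divergent neighbour of TAP1, and B2M. Each is written from 5′ to 3′ on the strand of its gene. Capitals mark matches, on either strand, to any of 6 motifs chosen after the sequences had been seen. The IRF-type motif was AANNGAAA and the NF-κB-type motif GGGNNTTCC. This strict pattern leaves longer or variant forms, such as gggactttcc in TAP1, in lower case. The core of a CREB site, as found in the X2 element of the SXY module, was searched as TGACG. The CCAAT box, which NF-Y binds and which forms the Y element, was searched as ATTGG. The letters of the GC box, bound by SP factors, were GGGCGG. An ETS site, the kind that ELK4 and its relatives bind, was searched as CCGGAAG, which is stricter than the common ETS core GGA(A/T).
HLA-B, chr6:31357130-31357429, minus strand: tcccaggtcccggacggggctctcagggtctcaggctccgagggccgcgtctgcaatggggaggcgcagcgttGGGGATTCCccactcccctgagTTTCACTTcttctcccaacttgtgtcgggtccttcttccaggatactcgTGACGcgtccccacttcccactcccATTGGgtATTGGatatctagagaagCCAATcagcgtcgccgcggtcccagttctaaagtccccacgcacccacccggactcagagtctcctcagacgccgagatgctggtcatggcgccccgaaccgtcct
HLA-C, chr6:31272043-31272342, minus strand: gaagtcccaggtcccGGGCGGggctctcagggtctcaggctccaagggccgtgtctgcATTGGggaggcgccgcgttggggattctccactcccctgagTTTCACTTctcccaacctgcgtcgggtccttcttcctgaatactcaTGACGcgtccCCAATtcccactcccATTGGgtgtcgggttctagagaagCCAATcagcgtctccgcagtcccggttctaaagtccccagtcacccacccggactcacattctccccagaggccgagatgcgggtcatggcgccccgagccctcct
TAP1, chr6:32853655-32853954, minus strand: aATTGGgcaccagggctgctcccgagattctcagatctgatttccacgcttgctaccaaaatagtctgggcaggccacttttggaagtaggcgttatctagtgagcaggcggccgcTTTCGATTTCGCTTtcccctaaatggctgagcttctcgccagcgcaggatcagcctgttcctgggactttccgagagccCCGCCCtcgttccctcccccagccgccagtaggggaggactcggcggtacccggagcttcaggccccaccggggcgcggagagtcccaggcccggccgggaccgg
TAP2, chr6:32838690-32838989, minus strand: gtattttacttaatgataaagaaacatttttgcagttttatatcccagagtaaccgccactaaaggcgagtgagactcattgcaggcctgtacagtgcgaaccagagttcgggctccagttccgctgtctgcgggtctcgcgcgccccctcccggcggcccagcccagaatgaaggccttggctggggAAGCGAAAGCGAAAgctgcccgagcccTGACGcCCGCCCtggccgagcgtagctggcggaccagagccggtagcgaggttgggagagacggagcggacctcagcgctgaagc
PSMB9, chr6:32853942-32854241, plus strand: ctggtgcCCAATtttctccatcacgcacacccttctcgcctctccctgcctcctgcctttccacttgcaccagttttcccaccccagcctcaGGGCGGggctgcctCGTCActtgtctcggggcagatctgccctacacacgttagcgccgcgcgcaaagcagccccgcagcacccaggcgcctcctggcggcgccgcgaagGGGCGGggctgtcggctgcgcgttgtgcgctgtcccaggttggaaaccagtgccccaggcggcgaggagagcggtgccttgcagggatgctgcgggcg
B2M, chr15:44711267-44711566, plus strand: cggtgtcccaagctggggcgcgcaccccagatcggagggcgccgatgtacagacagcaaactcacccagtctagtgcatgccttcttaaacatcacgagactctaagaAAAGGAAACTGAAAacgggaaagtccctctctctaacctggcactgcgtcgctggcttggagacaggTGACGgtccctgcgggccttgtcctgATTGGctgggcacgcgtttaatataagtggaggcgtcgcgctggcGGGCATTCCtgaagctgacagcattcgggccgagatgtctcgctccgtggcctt

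The HLA-B and HLA-C windows were identical at 269 of 296 aligned bases (90.9%). Both held an IRF-type match (from −155 to −148 from the start in HLA-B and from −151 to −144 in HLA-C), followed by TGACG and, from −56 to −52 in both, a CCAAT box. B2M had the same order of IRF-type match, TGACG and CCAAT box. Over the 10 windows of the 8 members, an IRF-type match was found in 7, none of them of PSMB9, against 22.8% of 35116 single RefSeq promoters of the same length. The PSMB9 window does not reach the IRF-type matches of TAP1, which lie in the stretch between the starts of these genes. NF-κB-type letters were found in 4 of 10 windows (6.58% of all promoters), TGACG in 6 (24.6%), CCAAT in 5 (34.6%) and a GC box in 8 (45.0%). The NF-κB-type letters stood in HLA-B, B2M, TAPBP and PSMB8 and not in HLA-C, and those of B2M lay across its start (from −4 to 5). Variant forms were not counted. The ETS letters CCGGAAG were found only in TAP1, in the window of its second start and not in the one shown, against 10.3% of all promoters. Sites with the GGA(A/T) core alone were not counted. Where 2 IRF-type matches stand in TAP1, TAP2, TAPBP, B2M and PSMB8, they overlap each other by 2 bases. These are matches of letters and not measured binding.

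**Figure D1:**
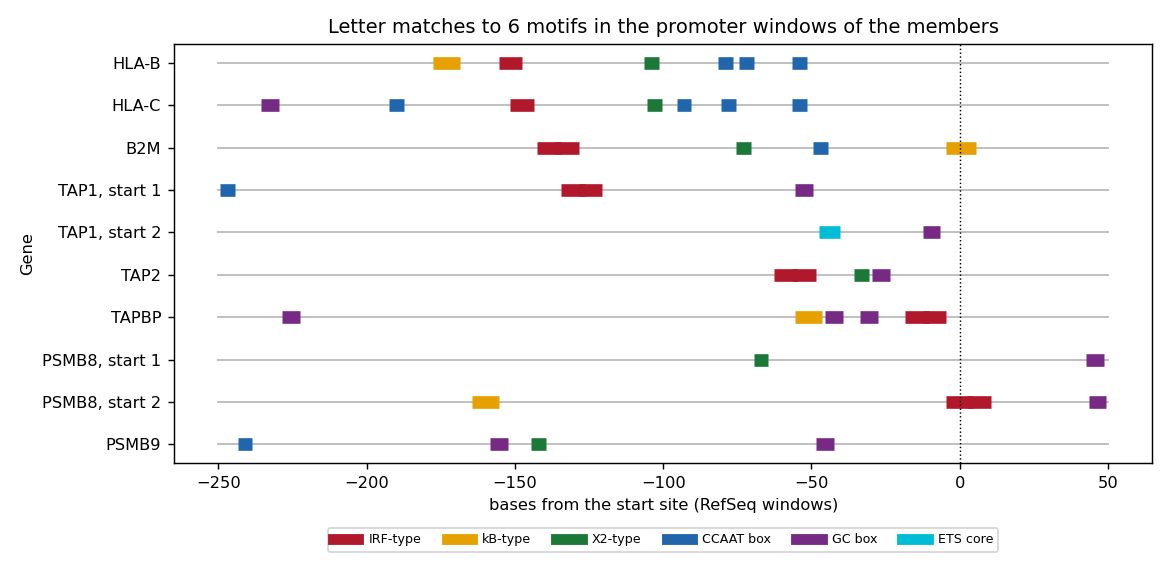
Position of letter matches to 6 motifs (coloured blocks) in the RefSeq promoter windows of 8 members, in bases from the start site. IRF-type matches (red) stand in 7 of the 8 genes, and the single match to CCGGAAG (ETS core, cyan) lies from −47 to −41 at the second start of TAP1.

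FPKM (fragments scaled by transcript length and by the mapped reads of the sample) takes length into account. Levels can therefore be set roughly beside each other between genes. The scaling does not correct for reads of other genes or for HLA genes that differ from the reference, so the order below is one of FPKM only. In the pLKO.1 samples the order from the highest was HLA-C, B2M, HLA-B, HLA-E, TAP1, TAP2, TAPBP, PSMB9 and PSMB8. HLA-C had a mean of 205 FPKM, the 199th highest of 20026 genes, B2M 174, HLA-B 101 and HLA-E 46.5. TAP1, TAP2 and TAPBP lay close together with 24.7, 19.5 and 18.2 FPKM, and their ranges over the 2 samples did not overlap. The immunoproteasome genes stood far below, with 2.45 FPKM for PSMB9 and 0.234 for PSMB8, although PSMB8 lies between TAP2 and TAP1.

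**Figure D2:**
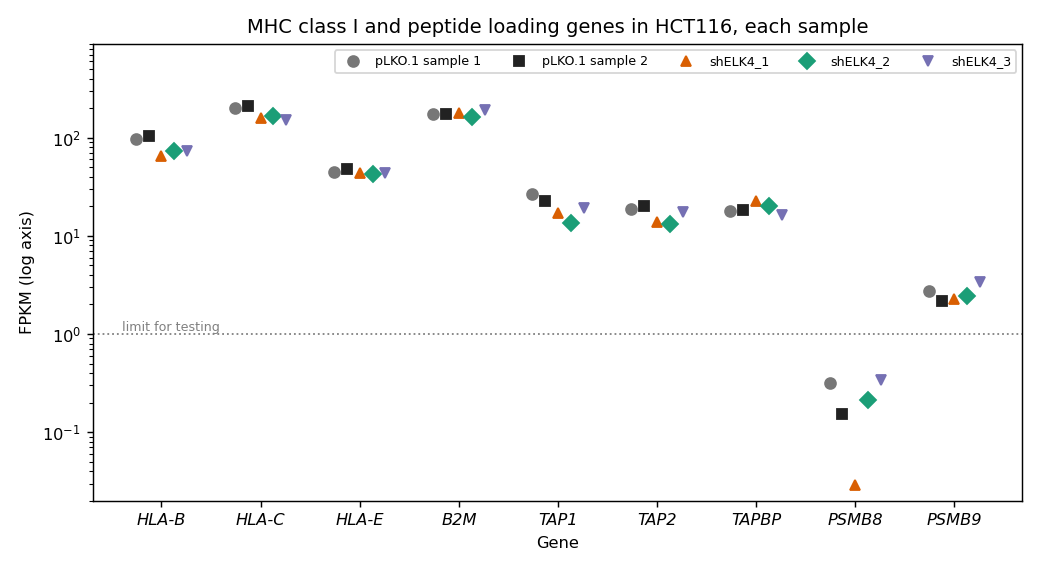
FPKM of the 9 genes (log axis) in the 2 pLKO.1 samples and the 3 hairpins, 1 symbol per sample. HLA-B, HLA-C, HLA-E, TAP1 and TAP2 lie lower in all 3 hairpins than in both pLKO.1 samples, and PSMB8 lies below the limit of 1 FPKM in every sample.

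ELK4 itself, the targeted gene, had 7.60 to 8.62 FPKM in the pLKO.1 samples and 2.44 to 3.14 FPKM with the hairpins (log2 fold change −1.26 with a standard error of 0.12, limma adjusted p = 0.029). FPKM totals were alike, from 309139 to 319870 per sample. Of 8 epithelial markers, 6 were measured above the limit, with summed FPKM of 2619 to 2660 in the controls and 1479 to 1993 with the hairpins. KRT8, KRT18, KRT19 and CDX2 were among the 4 of these lower at an unadjusted p under 0.05, and CDX1 was listed at 0 in every sample. All 10 leukocyte markers stayed at or below 0.367 FPKM, with CD3E, MS4A1 and FCGR3A listed at 0. Of 7 fibroblast and endothelial markers only COL1A1, at up to 4.21 FPKM, reached the limit. The part of the epithelial markers in the results below was not tested.

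HLA-B, HLA-C, TAP1 and TAP2 were lower with each hairpin than in both controls, while B2M, TAPBP, PSMB9 and PSMB8 were not. For testing, the 3 hairpins were taken as replicates of knockdown and set against both controls, with limma on log2(FPKM + 1), for 10780 genes with at least 1 FPKM in at least 2 samples. The 8 members other than PSMB8 had at least 2.17 FPKM in every sample, so none entered the test through 1 group alone. No member reached an adjusted p under 0.05 (0 of 8, limma with Benjamini-Hochberg adjustment), a limit that 0.167% of all tested genes reached. At an unadjusted p under 0.05, 4 of the 8 were lower and 0 were higher, against 8.14% and 8.08% of all tested genes. In 5 of the 8 all hairpins lay below both controls, as in 21% of all tested genes, and in 0 they all lay above both, as in 19.1%. "Lower" below refers to these values and to no adjusted call.

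HLA-B, a classical heavy chain, had 97.6 and 103.5 FPKM in the pLKO.1 samples. It had 64.4 FPKM with shELK4_1, 73.5 with shELK4_2 and 73.4 with shELK4_3. The groups stood well apart, and the hairpins lay within 10 FPKM of each other, at 64.0%, 73.1% and 73.0% of the control mean. The mean went from 101 ± 4.18 (SD, n = 2) to 70.4 ± 5.23 FPKM (SD, n = 3), which is −0.51 as a log2 fold change (95% interval −0.74 to −0.28, standard error 0.10, limma adjusted p = 0.0997).

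HLA-C, the classical heavy chain best known as a ligand of NK cell KIR receptors, had 201 and 210 FPKM in the controls. It had 160 FPKM with shELK4_1, 168 with shELK4_2 and 152 with shELK4_3. Every hairpin was again below both controls, and here shELK4_3 was the lowest, at 73.9% of the control mean, with shELK4_2 the highest at 81.8%. On the log2 scale the difference was −0.36 (95% interval −0.56 to −0.15, standard error 0.09, limma adjusted p = 0.137). Without pLKO.1 replicate 2 its unadjusted p in limma was 0.0667.

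HLA-E, which presents signal peptides of other class I chains to the NKG2A receptor, had 45.1 and 48.0 FPKM in the controls. With the hairpins it had 43.6, 42.6 and 43.9 FPKM. All hairpins lay below both controls, but by little, at 91.6% to 94.4% of the control mean. The log2 fold change of −0.10 had a 95% interval of −0.30 to 0.10 (adjusted p = 0.591, limma).

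B2M, the light chain shared by all class I molecules, had 175 and 174 FPKM in the controls. It had 180 FPKM with shELK4_1, 161 with shELK4_2 and 191 with shELK4_3. The hairpins fell on both sides of the controls, which were almost equal. Group means gave a log2 fold change of 0.02, with a 95% interval of −0.22 to 0.26 (adjusted p = 0.939, limma), and it was −0.04 without shELK4 replicate 3.

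TAP1, a subunit of the peptide pump, had 26.7 and 22.8 FPKM in the controls. It had 17.2 FPKM with shELK4_1, 13.5 with shELK4_2 and 19.0 with shELK4_3. The hairpins were all lower and shELK4_2 was the lowest, at 54.7% of the control mean. The controls themselves differed by 0.22 on the log2(FPKM + 1) scale, more than those of HLA-B (0.08). Its log2 fold change of −0.56 had a 95% interval of −0.93 to −0.19 (standard error 0.15, limma adjusted p = 0.17). Without pLKO.1 replicate 1 its unadjusted p in limma was 0.0787.

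TAP2, the partner subunit, had 18.8 and 20.1 FPKM in the controls. With the hairpins it had 13.8, 13.3 and 17.6 FPKM. Here shELK4_3, at 90.5% of the control mean, stood nearer to the controls than to the other hairpins, at 70.8% and 68.1%. With a 95% interval of −0.70 to −0.05, its log2 fold change was −0.37 (standard error 0.14, limma adjusted p = 0.254). Its unadjusted p in limma was above 0.05 when any of 4 samples was left out, with 0.0797 and 0.15 without pLKO.1 replicates 1 and 2, and 0.0797 and 0.0624 without shELK4 replicates 1 and 2.

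TAPBP, the gene of tapasin, had 18.0 and 18.3 FPKM in the controls. It had 22.9 FPKM with shELK4_1, 19.9 with shELK4_2 and 16.3 with shELK4_3. A pair of hairpins stood above both controls and shELK4_3 below both. The log2 fold change was 0.10, with a 95% interval of −0.25 to 0.44 (adjusted p = 0.767, limma), and it was −0.01 without shELK4 replicate 1.

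PSMB9, an immunoproteasome subunit, had 2.73 and 2.17 FPKM in the controls. With the hairpins it had 2.27, 2.41 and 3.42 FPKM. Only shELK4_3 was above both controls, at 140% of their mean. The log2 fold change was 0.09, with a 95% interval of −0.29 to 0.47 (adjusted p = 0.801, limma). It was −0.04 without shELK4 replicate 3 and −0.02 without pLKO.1 replicate 2.
PSMB8, its neighbour, had 0.315 and 0.152 FPKM in the controls. With the hairpins it had 0.0288, 0.215 and 0.338 FPKM, which spread beyond the controls on both sides. It did not reach the limit for testing. In a fit of every gene above 0 its log2 fold change was −0.05 (95% interval −0.38 to 0.27, adjusted p = 0.889, limma), and −0.31 with a pseudocount of 0.1 (adjusted p = 0.837, limma). At so low a level the value follows the pseudocount and no change is detectable.

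**Figure D3:**
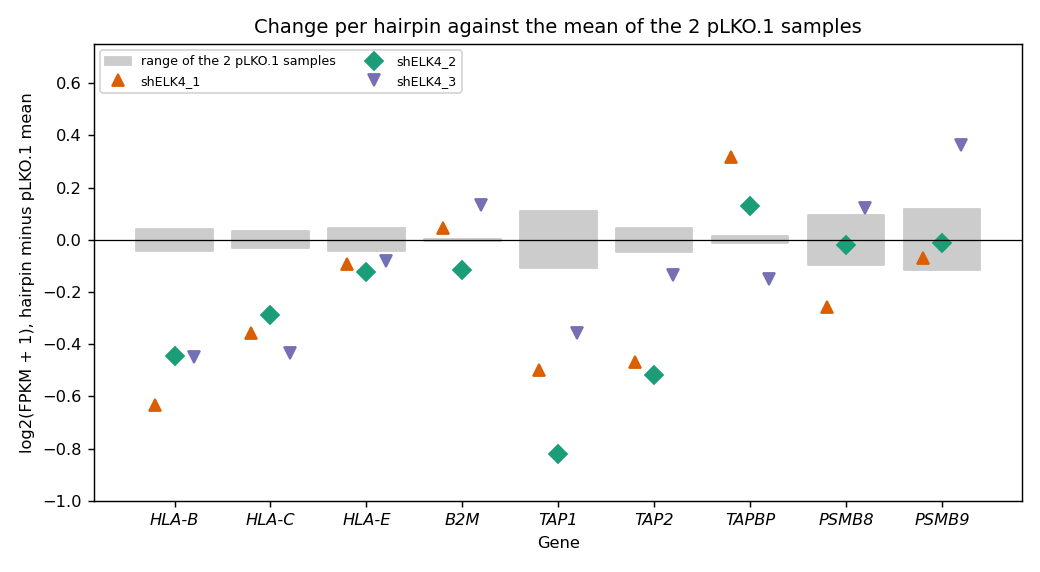
Difference of each hairpin from the mean of the 2 pLKO.1 samples on the log2(FPKM + 1) scale (symbols), with the range of those 2 samples as grey boxes. For HLA-B, HLA-C, HLA-E, TAP1 and TAP2 all 3 hairpins lie below the grey box, and for B2M, TAPBP, PSMB8 and PSMB9 they lie on both sides of 0.

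Ratios of FPKM within a sample show how the members stood to each other. For HLA-B over B2M the ratio was 0.559 and 0.596 in the controls and 0.359, 0.457 and 0.384 with shELK4_1, shELK4_2 and shELK4_3. For HLA-C over B2M it was 1.15 and 1.21 in the controls and 0.89, 1.04 and 0.793 with the hairpins. HLA-C thus stood above B2M in both controls and with shELK4_2, and below it with shELK4_1 and shELK4_3. Summed over HLA-B, HLA-C and HLA-E, heavy chain FPKM was 343 and 361 in the controls and 268, 284 and 269 with the hairpins.
For TAP1 over PSMB9, genes that start 487 bases apart, the ratio was 9.79 and 10.5 in the controls and 7.56, 5.62 and 5.57 with the hairpins. For TAP1 over TAPBP it was 1.48 and 1.24 in the controls, 0.751 and 0.679 with shELK4_1 and shELK4_2, and 1.17 with shELK4_3. TAPBP therefore had the lowest level of the loading genes TAP1, TAP2 and TAPBP in both controls and with shELK4_3, and the highest with the other two hairpins. These ratios are a description, without a test.

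**Figure D4:**
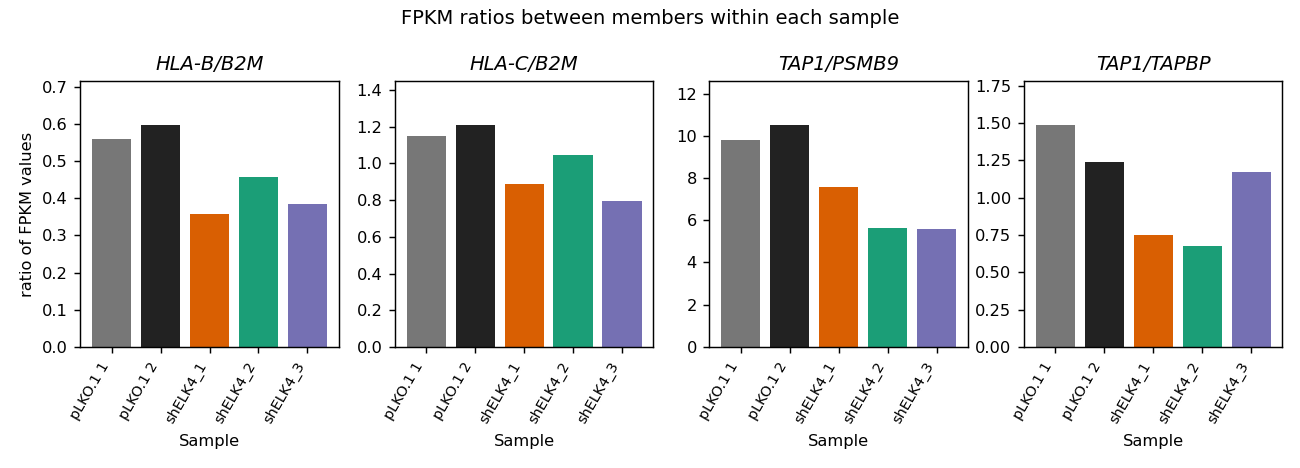
Ratio of FPKM values between pairs of members in each sample (bars, axes from 0). The ratios HLA-B/B2M, HLA-C/B2M and TAP1/PSMB9 are lower with each of the 3 hairpins than in both pLKO.1 samples, and TAP1/TAPBP reaches 1.17 with shELK4_3.

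The samples varied most alike for HLA-B and HLA-C (Pearson r = 0.93 over the 5 samples) and for TAP1 and TAP2 (r = 0.88), and most unlike for TAPBP and PSMB9 (r = −0.73). With 5 samples in 2 groups these values describe the samples only. By the mean of the 8 tested members, centred per gene, shELK4_3 was the hairpin nearest to the controls (−0.01 on the log2 scale, against 0.13 and 0.12 in the controls, −0.09 with shELK4_1 and −0.15 with shELK4_2). This did not hold for each member. TAP1, TAP2 and HLA-E were nearest to the controls with shELK4_3, but HLA-C was lowest with it, and B2M and PSMB9 were highest. Among 3124 tested genes with an SD of at least 0.2 over the samples, those most like the member mean were MT1X (r = 0.998), ZNFX1 (0.996), ECHS1 (0.995), ZNF652 (0.995) and RFTN1 (0.993). MT1X encodes a metallothionein and ECHS1 a mitochondrial enzyme of fatty acid oxidation. RFTN1 entered the test only through the controls, with 1.19 and 1.26 FPKM against 0.310 to 0.766 FPKM with the hairpins. The member mean was also high in the controls, so the place of RFTN1 here is favoured by the limit. With so many candidates and so few samples, high values arise easily.

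The rest of the pathway was taken from fixed lists of 118 genes, of which 83 were tested. At an unadjusted p under 0.05, 17 were lower and 5 were higher, and 0 had an adjusted p under 0.05 (limma). Over all tested genes, 8.14% were lower and 8.08% higher at that unadjusted limit. The counts for single lists below are to be set beside the same shares. Their median log2 fold change was −0.08, against −0.01 over all tested genes.

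Of 13 further proteasome genes 4 were lower and 0 higher. PSMB10, the remaining immunoproteasome catalytic subunit, went from 25.1 ± 1.09 (SD, n = 2) to 17.7 ± 0.504 FPKM (SD, n = 3), or −0.48 as a log2 fold change (limma adjusted p = 0.0952). The standard subunits PSMB5 and PSMB6 differed by −0.34 and −0.35 (adjusted p = 0.14 and 0.168, limma), and PSMB7 by −0.17 (adjusted p = 0.359, limma). Their control means were 143, 210 and 193 FPKM. PSMB8 thus stood at 0.0259% to 0.288% of PSMB5 in all samples and PSMB9 at 1.02% to 2.19% of PSMB6. PSMB10 stood at 13.1% and 12.9% of PSMB7 in the controls and at 10.1% to 10.6% with the hairpins. PSME2, a subunit of the interferon-inducible PA28 activator, differed by −0.35 (adjusted p = 0.249, limma), and its partner PSME1 by −0.08 (adjusted p = 0.782, limma).

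Of 9 genes for chaperones and peptide trimming, 7 were tested, and only ERAP1, the aminopeptidase that trims peptides in the endoplasmic reticulum, was past that limit, with a log2 fold change of −0.30 (adjusted p = 0.201, limma) from 1.60 to 1.11 FPKM. The chaperones of the loading complex CALR, CANX and PDIA3 differed by −0.08, −0.16 and −0.08, with overlapping groups. TAPBPL, a tapasin relative, stayed at or below 0.0454 FPKM. Of 6 other class I and related genes, 3 were tested and 0 were past the limit. HLA-F had 1.92 and 1.91 FPKM in the control and hairpin means.

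Among 14 regulators of class I transcription, 1 was higher and 0 were lower. This was USF2, a factor that binds E-boxes, with a log2 fold change of 0.41 (adjusted p = 0.2, limma). NLRC5, the class I transactivator, had 0.417 and 0.428 FPKM in the controls. It had 1.24 FPKM with shELK4_1, 0.399 with shELK4_2 and 1.51 with shELK4_3. It was high with shELK4_1 and shELK4_3 and below both controls with shELK4_2, and it entered the test only through those 2 hairpins. The log2 fold change of 0.48 had a standard error of 0.24 (limma adjusted p = 0.374). RFX5, its partner at the X box, differed by 0.07 (adjusted p = 0.77, limma).

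Of 14 interferon signalling genes, 13 were tested, 2 were higher and 0 lower. IFNAR2, a chain of the type I interferon receptor, had a log2 fold change of 0.68 (adjusted p = 0.128, limma). SOCS1, a feedback inhibitor of JAK kinases, had one of 0.93 (adjusted p = 0.144, limma). IRF1, a factor that binds the IRF sites of class I promoters, differed by 0.02, with overlapping groups. Of 36 interferon-stimulated genes, 17 were tested and 8 were lower, with 0 higher. They were ISG15 (−0.57), IFI6 (−1.06), IFITM2 (−0.76), IFITM3 (−0.60), PARP9 (−0.45), DTX3L (−0.53), SAMD9 (−0.51) and DDX58 (−0.36), with adjusted p from 0.0568 to 0.285 (limma). GBP4 and IDO1 were listed at 0 in every sample.

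Class II genes ranged from 0 to 5.97 FPKM, and 4 of 12 were tested. HLA-DRA was higher, with a log2 fold change of 0.49 from a control mean of 1.28 FPKM (limma adjusted p = 0.147). HLA-DRB1, which shares sequence with other DRB genes, had 1.15 and 1.28 FPKM in the controls and 0.341 to 0.650 FPKM with the hairpins. It entered the test only through the controls, where it was high, so its place among the genes lower at an unadjusted p under 0.05 is favoured by the limit. CD74 stayed at or below 0.295 FPKM, and CIITA, the class II transactivator, at or below 0.00432. Of 14 ligands of NK cells and checkpoints, 12 were tested, with 3 lower and 1 higher. MICA, a ligand of the NKG2D receptor, differed by −0.38 (adjusted p = 0.138, limma), RAET1L by −0.54 (adjusted p = 0.217, limma) and NECTIN2, a ligand of DNAM-1 and TIGIT, by −0.36 (adjusted p = 0.151, limma). ULBP3, also an NKG2D ligand, differed by 0.31 (adjusted p = 0.168, limma). CD274, the gene of PD-L1, went from 1.07 to 1.37 FPKM, a log2 fold change of 0.20 (adjusted p = 0.374, limma).

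**Figure D5:**
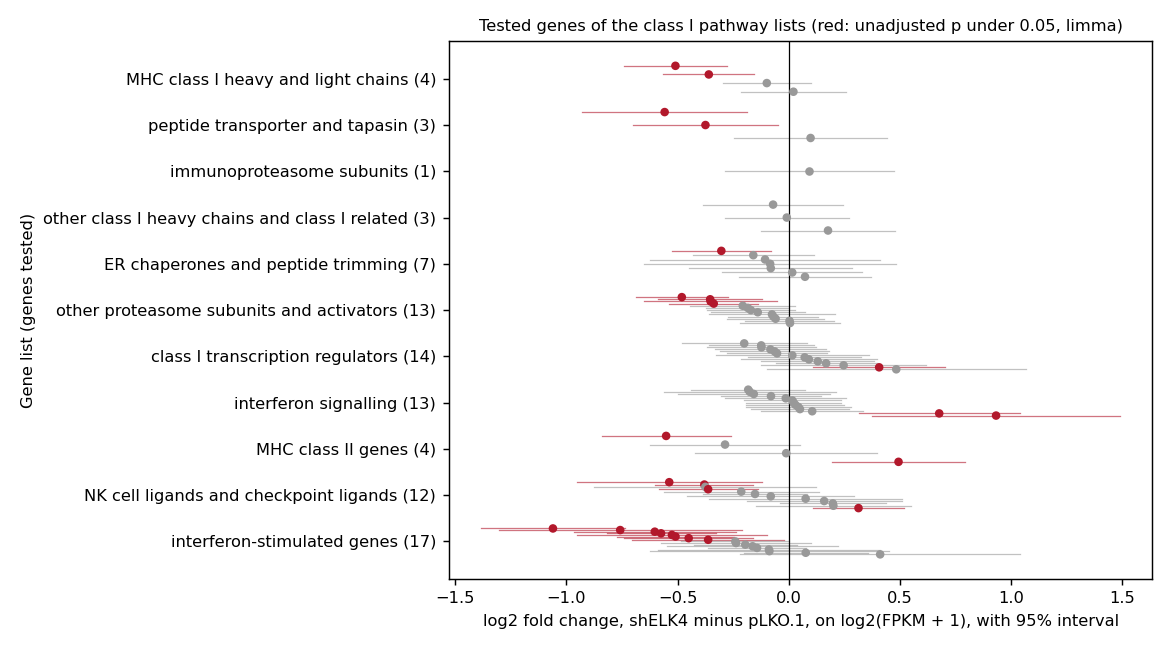
Log2 fold change with its 95% interval for each tested gene of the class I pathway lists, red where the unadjusted p from limma was under 0.05. Of the 83 genes that are no members, 17 are red on the left of 0 and 5 on the right, against 8.14% and 8.08% of all tested genes.

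Some of these values may include reads of other genes, since how reads were assigned is not given in the sources used here. Of the 50-base words in the canonical GENCODE transcript, HLA-B shares 2.56% with other genes, HLA-C 6.76% and HLA-E 6.16%, mostly class I relatives, while TAPBP shares 6.98% with unrelated genes and TAP1 1.18%, and HLA genes also differ from the reference in many cell lines. TAP2 shares 35.3%, nearly all with a readthrough gene (ENSG00000250264). Antisense exons cover 21.5% of the exonic bases of TAP1 (PSMB8-AS1), 23.7% of those of HLA-B and 40.5% of those of TAPBP, and the sources used here do not say if strand was kept. B2M, PSMB8 and PSMB9 shared no word.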

How the data were processed

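RNA-seq was carried out on poly(A)-selected RNA of 2 pLKO.1 and 3 shELK4 samples, grouped by sample titles. The authors deposited FPKM per gene, which Cufflinks had calculated and scaled to the mapped reads of each sample. Their processing notes list Trimmomatic 0.36, HISAT2 2.0.5, Cufflinks 2.2.1 and HTSeq 0.9.1. The genome build is not given in the sources used here. Of 20030 entries, 4 with repeated names were dropped.

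FPKM carries no counts. At most 4.3% of genes under 0.1 FPKM shared a ratio between samples within 0.2%, so whole reads were not recovered and depth is unknown. The number of samples limits the precision.

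Genes with at least 1 FPKM in at least 2 samples were fitted with limma 3.58.1 (R 4.3.3, a model with condition alone, empirical Bayes with a trend) on log2(FPKM + 1), with p-values adjusted over all of them (Benjamini-Hochberg). On this scale the change of low genes is understated. Changes per hairpin are differences from the control mean, without a test. On simulated data (10780 genes, 200 changed by 1.5 on the log2 scale) 100% were recovered with 0 false calls. The changed genes were drawn from the higher levels only, and within a group all genes had the same SD. Every member changed by less than 1.5, so this recovery says nothing about changes of that size.

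The members and lists were chosen with earlier results of these data known. Genes named beside the members are ELK4, list genes with an unadjusted p under 0.05, a fixed set of pathway genes (1 of which is not reported here) and the 5 genes most like the member mean. The motifs, the ratios and the pairwise correlations were chosen after the data and sequences had been seen. Markers and NK ligands came from the same lists. Promoters are from RefSeq (GRCh38.p14), transcripts from GENCODE release 44, since the deposited tables hold no coordinates used here. Alternatives were a pseudocount of 0.1, every gene above 0, both together, a replicate block, each sample left out, median-of-ratios scaling, quantile normalization and a weight for each group. Python 3.11.15, pandas 2.3.3, numpy 2.4.6, biopython 1.88 and matplotlib 3.10.9 were used.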

Additional observations from a re-analysis of the deposited data

How the results depend on the processing

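HLA-B, HLA-C, TAP1 and TAP2 kept a negative log2 fold change under all 12 alternatives, from −0.55 to −0.42, −0.40 to −0.28, −0.67 to −0.43 and −0.49 to −0.30. HLA-E ranged from −0.14 to −0.03. The member count of 4 lower at an unadjusted p under 0.05 (limma) was 2 to 4 with a sample left out, 2 without either pLKO.1 sample. With a weight for each group, 2 members had an adjusted p under 0.05 from limma, HLA-B (0.0251) and HLA-C (0.047), as had 413 genes in all, and 1328 genes were lower at an unadjusted p under 0.05. With a sample left out, the genes past an adjusted p of 0.05 numbered 0 to 95, those lower at an unadjusted p under 0.05 numbered 239 to 1191 and those higher 282 to 1254. The genes of the pathway lists then numbered 9 to 22 lower and 3 to 6 higher, with the fewest without either pLKO.1 sample, where a lone control is assumed to vary like the hairpins. With every gene above 0 tested, 0 genes passed the adjusted limit at either pseudocount, and ELK4 differed by −1.26 (adjusted p = 0.114, limma) or −1.51 (adjusted p = 0.145, limma). ELK4 differed by −1.34 to −1.18 with a sample left out, and passed only without shELK4 replicate 2.

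The log2 fold change of members near 0 turned sign. B2M was −0.035 and PSMB9 −0.041 with the replicate block. With a sample left out, B2M ranged from −0.035 (without shELK4 replicate 3) to 0.089, PSMB9 from −0.041 (without shELK4 replicate 3) to 0.21, with −0.02 without pLKO.1 replicate 2, and TAPBP from −0.011 (without shELK4 replicate 1) to 0.22. The causes of these differences were not tested. Replicate numbers are shared by the groups for 2 samples each, and their deviations from the group means correlated by 0.08 and 0.02. The deviations of 2 controls are mirror images, and each shELK4 sample carried a different hairpin. These values therefore cannot show whether the numbers pair the samples. shELK4 replicate 3 has no partner, so the block also takes it out of the fold changes, which are those found without it. The block gave 22 genes with an adjusted p under 0.05 against 18 in the full fit and 1 without that sample.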
